A study of Homo sapiens with 1 sample.

Results

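The miR-26 family was examined on 1 microRNA (miRNA) microarray of DLD-1 cells. DLD-1 is an established human colorectal carcinoma line, and these cells carried a transfected siRNA that served as negative control (si-NC, n = 1 array). The members were taken by name from the spots of human probes in the scanner file, and were hsa-miR-26a-5p, hsa-miR-26b-5p, hsa-miR-26a-1-3p, hsa-miR-26a-2-3p and hsa-miR-26b-3p (written below without hsa). These are 5 of the 2549 miRNAs on the array, read by 100 of its 50980 miRNA spots. The study set out to learn how depletion of circLONP2, a circular RNA of the LONP2 gene, alters miRNAs. The array of depleted cells was not analysed here, so no groups were compared and no test was run. Every error below is technical, and the spread between cultures is unknown.

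A miRNA is cut from a hairpin precursor, and its seed, the stretch near the 5′ end, pairs with target transcripts. The human miR-26 hairpins sit in introns of genes for small C-terminal domain phosphatases, which act on RNA polymerase II and on the retinoblastoma protein. By RefSeq (GRCh38.p14), the MIR26A1 hairpin lies within CTDSPL, MIR26A2 within CTDSP2 and MIR26B within CTDSP1. The 5p arm is the usual guide strand of these hairpins and is known to repress EZH2, a histone methyltransferase. Both MIR26A1 and MIR26A2 give the same miR-26a-5p, while each hairpin has a 3p arm of its own sequence. A 3p arm can mark a single locus as far as its probes bind that arm alone, which was not tested.

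The hairpins are printed in lower case with both mature arms in capitals, to show which arm is shared and which marks a locus. MIR26A1 is chr3:37969404-37969480 on the plus strand, MIR26A2 is chr12:57824609-57824692 on the minus strand and MIR26B is chr2:218402646-218402722 on the plus strand. Sequences and positions are those of RefSeq on GRCh38.p14, and the array itself was designed on hg19.
MIR26A1: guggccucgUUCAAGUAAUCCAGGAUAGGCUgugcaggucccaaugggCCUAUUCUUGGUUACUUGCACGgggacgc
MIR26A2: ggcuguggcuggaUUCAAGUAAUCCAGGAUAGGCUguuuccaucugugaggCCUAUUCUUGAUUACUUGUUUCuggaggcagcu
MIR26B: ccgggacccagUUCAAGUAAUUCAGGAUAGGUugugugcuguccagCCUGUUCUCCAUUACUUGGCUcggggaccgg

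The 5 mature members follow, 5′ to 3′, with the seed (bases 2 to 8) in capitals, since the arms group by it.
miR-26a-5p: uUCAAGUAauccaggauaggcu
miR-26b-5p: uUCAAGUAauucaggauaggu
miR-26a-1-3p: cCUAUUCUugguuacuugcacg
miR-26a-2-3p: cCUAUUCUugauuacuuguuuc
miR-26b-3p: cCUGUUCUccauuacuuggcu

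The guide arms miR-26a-5p and miR-26b-5p share the seed UCAAGUA. They are the same at 19 of the 21 positions both have, with the changes C11U and C21U (positions counted from 1 at the 5′ end, the base of miR-26a-5p first). The 3p arms differ more. miR-26a-1-3p and miR-26a-2-3p share the seed CUAUUCU and are the same at 17 of 22 positions, with G11A, C19U, A20U, C21U and G22C. miR-26b-3p carries another seed, CUGUUCU, because of A4G, and is the same as miR-26a-1-3p at 14 of 21 positions and as miR-26a-2-3p at 16 of 21.

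All 5 members carried the detection flag of the scanner software. Over the whole array that flag was set for 1133 of 2549 miRNAs, or 44.4%. The flag did not rest on equal ground for all members: 4 of them had every probe above background, and miR-26a-2-3p had 1 of 4. As a check of the cell type, 8 of 8 colon epithelium markers were flagged as detected, among them the miR-200 family and miR-192-5p. Of 9 markers of other tissues 3 were flagged, namely miR-223-3p (25.4 ± 1.97) and miR-451a (21.5 ± 1.67) of blood and miR-126-3p (123 ± 8.75) of endothelium. These are total gene signals with the error of the software, as explained below, and all 20 spots of each were well above background. What these 3 markers mean for the miR-26 signals was not tested.

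The guide arms gave the brightest signals of the family. miR-26a-5p was read by 2 probes with 10 spots each. The spots of the dimmer probe ran from 6010 to 6761, with a median of 6434, and those of the brighter probe from 8848 to 10197, with a median of 9445. All 20 spots were well above background, and the spots of the probes did not overlap. The total gene signal, which the software sums over the probes of a miRNA on a scale of its own, was 2919 ± 211 (error from the software).

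miR-26b-5p was likewise read by 2 probes with 10 spots each. Its dimmer probe ran from 7631 to 8369 (median 8193) and its brighter probe from 8735 to 9799 (median 9283). Here too all 20 spots were well above background and the probes did not overlap. The total gene signal was 3194 ± 226. A probe's brightness depends on how it binds as well as on the amount of RNA, so the signals of miR-26a-5p and miR-26b-5p were not read as relative amounts. Nor could they be split cleanly between 2 guide arms that differ at so few positions, since probe sequences were not analysed here.

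miR-26a-1-3p, the arm of the hairpin in CTDSPL, was read by 4 probes with 5 spots each. From the dimmest to the brightest probe, the means were 116 ± 1.41 (SD, 4 spots, 1 outlier spot of 98.2 left out), 130 ± 2.78 (SD, 5 spots), 139 ± 9.33 and 178 ± 1.62. All 20 spots were well above background, and the lowest of them lay far above 16.1, the 99th percentile of the 1000 negative control spots. The total gene signal was 51.5 ± 2.65.

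miR-26b-3p, the arm of the hairpin in CTDSP1, also had 4 probes with 5 spots each, and all 20 spots were well above background. The probe means were 25.05 ± 2.56, 48.6 ± 4.13, 88.9 ± 7.39 and 101 ± 6.44 (SD, 5 spots each). The lowest single spot, at 22.2, was still above the limit of the negative control spots. The total gene signal was 24.1 ± 1.42.

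miR-26a-2-3p, the arm of the hairpin in CTDSP2, stood apart. Of its 4 probes 1 gave signal, with spots of 39.6 to 50.05, a median of 42.6 and a mean of 43.9 ± 4.16 (SD, 5 spots). The other 3 probes had means of -1.42 ± 1.94, -1.65 ± 0.860 and -1.94 ± 1.72 (SD over 5, 5 and 4 spots), and 0 of their 15 spots were well above background. The highest of these spots was 12.7, marked as an outlier by the software and below the 16.1 of the negative control spots. The software took the total gene signal of 4.02 ± 0.469 from the single bright probe, whose own probe signal has the same value. Whether that probe also binds miR-26a-1-3p, the same at 17 of 22 positions, or miR-26b-3p, the same at 16 of 21, was not tested.

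**Figure D1:**
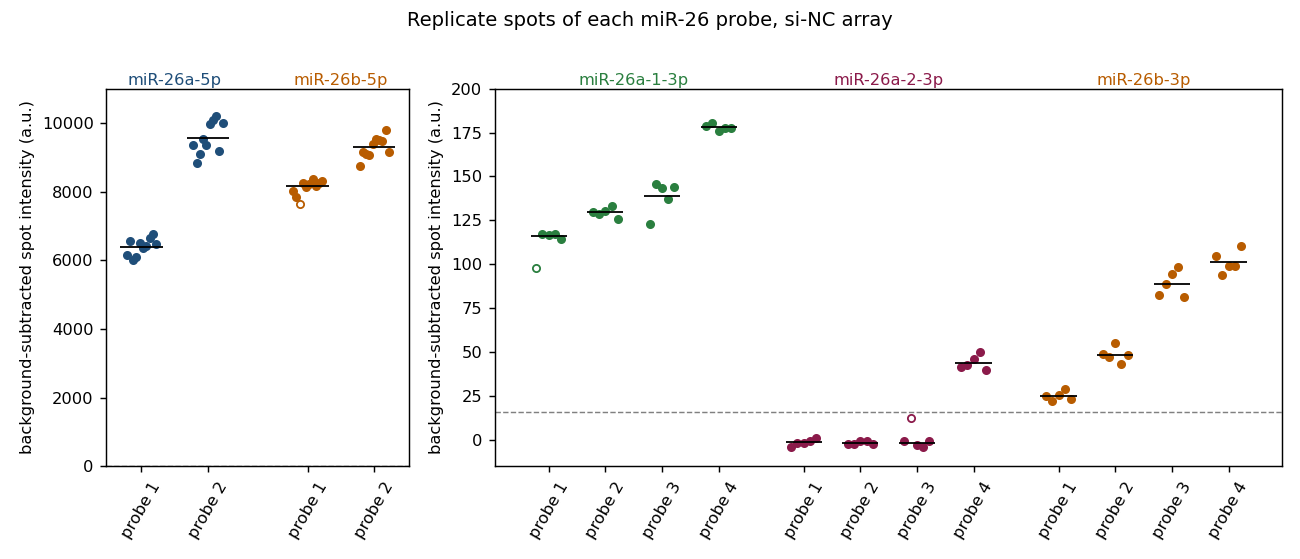
Background-subtracted intensity (arbitrary units, linear axes that differ between the panels) of every replicate spot of the 16 miR-26 probes on the si-NC array. Bars are probe means without outlier spots, open circles are outlier spots, and the dashed line in the right panel is the 99th percentile of negative control spots (16.1). All probe means lie above the line except those of 3 of the 4 probes of miR-26a-2-3p.

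A flag that rests on 1 probe of 4 was not particular to miR-26a-2-3p. Of the 142 detected miRNAs with 4 probes, 74 had a signal over 3 times its error on all 4, as miR-26a-1-3p and miR-26b-3p did. There were 27 with 2 such probes, 21 with 3, and 20 (14.1%) with 1, miR-26a-2-3p among them.

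**Figure D2:**
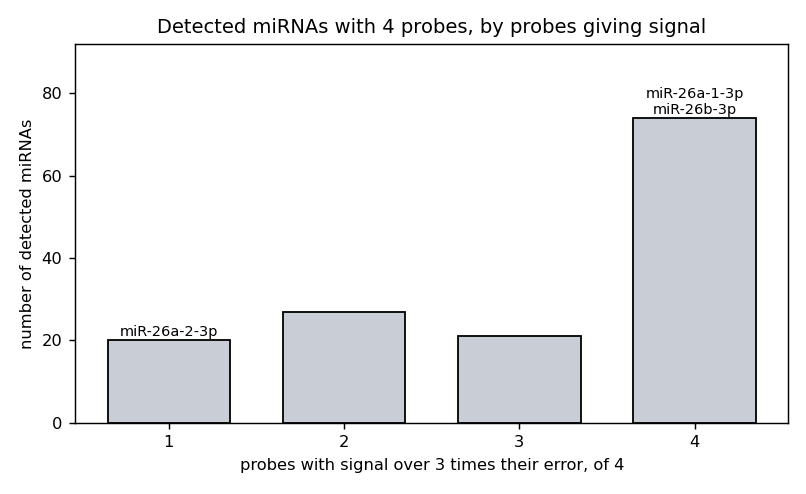
Number of detected miRNAs with 4 probes (142 in all), by how many of the probes had a signal over 3 times their error. miR-26a-2-3p is among the 20 with 1 such probe, and miR-26a-1-3p and miR-26b-3p are among the 74 with 4.

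Stricter rules of detection removed the same arm. A probe is called bright here when 50% or more of its spots were well above background. miR-26a-2-3p was not called where all of a miRNA's probes had to be bright (29.4% of all miRNAs called, 27.8% of arms named 3p and 30.2% of arms named for 1 locus), where the median spot had to exceed the 99th percentile of negative control spots (31.2%), or where a total gene signal of 5 or more was asked for as well as the flag (33.3%). The other 4 members were called under each of these rules. A rule that asked for 1 bright probe called all 5 (37.9% of all miRNAs).

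The deposited processed values, in log2 after quantile normalization, were 11.2 for miR-26a-5p, 11.3 for miR-26b-5p, 5.81 for miR-26a-1-3p and 4.69 for miR-26b-3p. For miR-26a-2-3p the value was 2.3236, just above the 2.3219 at which undetected miRNAs were set, and 283 miRNAs shared it. The value of miR-26a-2-3p in that table therefore holds no order against those of other dim miRNAs.

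Set against all detected miRNAs, the family spanned most of the range of the array. The total gene signal of miR-26b-5p was above that of 1100 of the 1133 detected miRNAs (97.1%), and that of miR-26a-5p was above 1098 (96.9%). The signals of miR-26a-1-3p, miR-26b-3p and miR-26a-2-3p were above 74.8%, 62.8% and 19.1% of them. These are places among probe signals, which are not amounts.

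**Figure D3:**
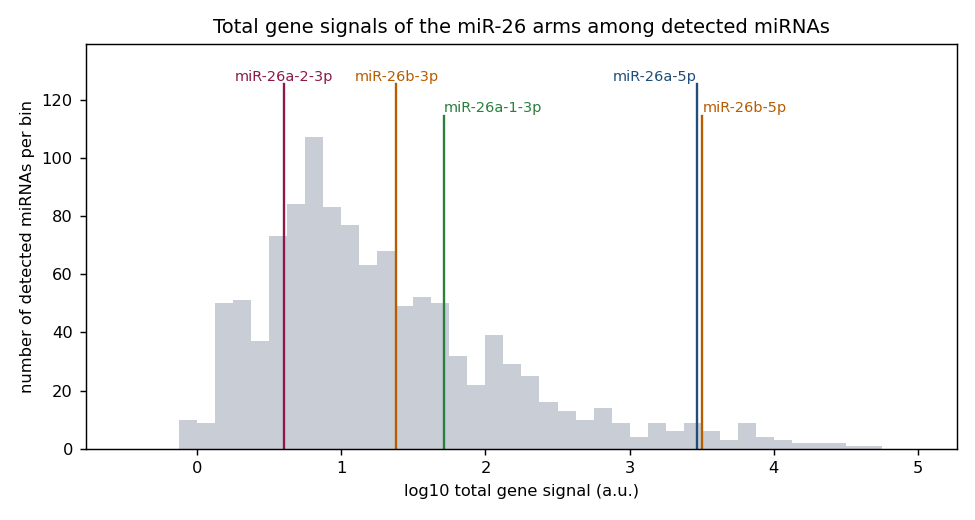
Number of detected miRNAs (1133) per bin of log10 total gene signal (arbitrary units), with vertical lines at the 5 miR-26 arms. The guide arms, at 2919 and 3194, lie in the upper tail, and the 3p arms, at 51.5, 24.1 and 4.02, lie in the body of the distribution.

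Levels were also taken in log2 against the 75th percentile of spots of detected miRNAs, a signal of 143. That of miR-26a-5p was 5.78 ± 0.06 (SD of the spots about their probe mean, 20 spots) and that of miR-26b-5p 5.94 ± 0.04 (19 spots). miR-26a-1-3p lay at that percentile, at -0.02 ± 0.06 (19 spots), and miR-26b-3p below it, at -1.31 ± 0.12 (20 spots). For miR-26a-2-3p the value was -1.70 ± 0.13 over the 5 spots of its single probe above background, so it leaves out the 3 probes with no signal.

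The coefficient of variation (CV, the SD over the mean) of the members' bright probes ran from 0.908% to 10.2%. It was at most 6.72% for the guide arms and miR-26a-1-3p. For miR-26a-2-3p it was 9.47%, and for miR-26b-3p it ran from 6.36% to 10.2%. The 1943 bright probes of the array had a median of 8.74% and an interquartile range of 5.12% to 14.5%. Differences between probes of 1 member were larger than the spread of its replicate spots. From the dimmest to the brightest probe the step was 0.58 ± 0.03 (log2, SE from replicate spots) for miR-26a-5p, 0.18 ± 0.02 for miR-26b-5p, 0.62 ± 0.01 for miR-26a-1-3p and 2.02 ± 0.08 for miR-26b-3p. Over all detected miRNAs the median difference was 0.32 with 2 bright probes (683 miRNAs) and 1.18 with 4 (57 miRNAs), with quartiles of 0.62 and 2.12 for the latter. For miR-26b-3p the step was 4.06-fold, and after background correction by normexp it was 0.94 on the log2 scale in place of 2.02.

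Both arms were flagged in all 3 pairs of a 5p and a 3p arm of the family, with miR-26a-5p counted for MIR26A1 and MIR26A2 alike. Over the array, 252 of 853 pairs of a 5p and a 3p arm (29.5%) had both arms flagged. Another 171 pairs had the 5p arm alone, 130 the 3p arm alone and 300 neither. With all probes required to be bright, 2 of the 3 miR-26 pairs and 103 of the 853 had both. The pair lost was that of miR-26a-2-3p with the shared miR-26a-5p.

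Other miRNAs that are cut from more than 1 locus also have arms named for a single locus. Of the 43 such arms on the array 24 were flagged (55.8%), beside 43.8% of all 875 arms named 3p. For 17 families the array held these arms from 2 loci. Both were flagged in 6 families (let-7f, miR-1185, miR-128, miR-129, miR-16 and miR-26a), 1 in 9 and none in 2. With all probes required to be bright, 1 family kept both arms, miR-1185, while 10 had 1 arm, miR-26a among them, and 6 had none. The miR-26a family had 100% of probes bright for miR-26a-1-3p and 25% for miR-26a-2-3p. A dim 3p arm does not show that a hairpin gives little guide strand, and how much of miR-26a-5p came from MIR26A1 or MIR26A2 cannot be told apart on this array.

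**Figure D4:**
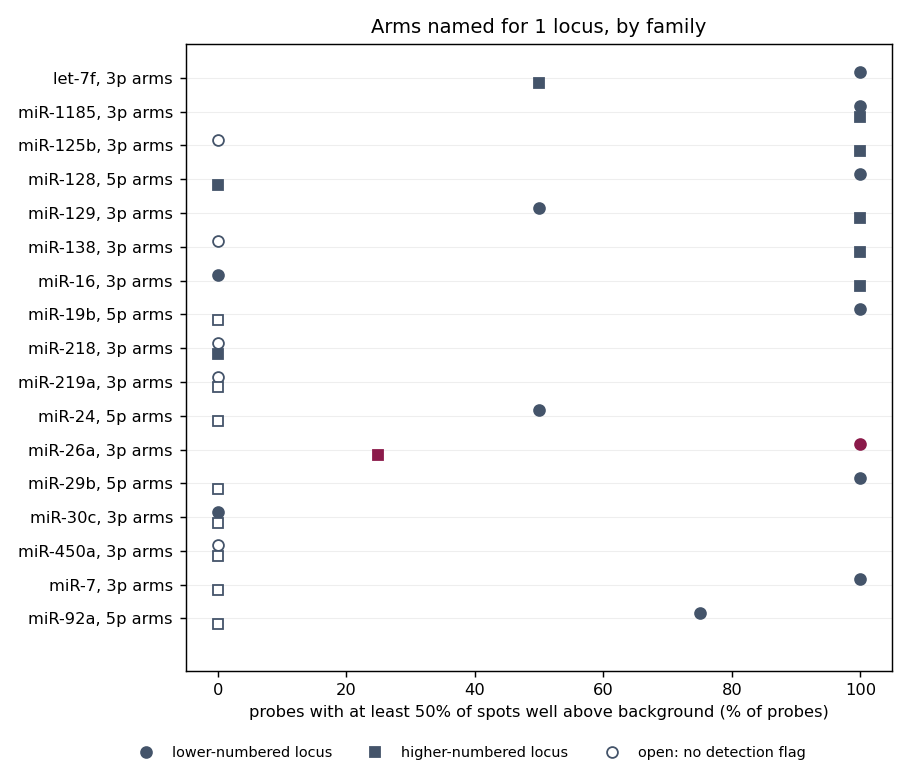
Percent of bright probes (50% or more of spots well above background), for the 34 arms named for 1 locus in 17 families. Circles are the lower-numbered and squares the higher-numbered locus, open symbols had no detection flag, and miR-26a is in red, with its arms at 100% and 25%.

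Of the 2549 miRNA names of the array, 2248 (88.2%) matched a RefSeq mature sequence and could be searched for seeds. Among these the seed of the guide arms occurs in 4, the other two being miR-1297 and miR-4465. They are shown with the seed in capitals, because they share little else with each other.
miR-1297: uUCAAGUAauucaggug
miR-4465: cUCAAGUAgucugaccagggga
miR-1297, from chr13:54311981-54311997 on the minus strand, is 17 bases long against 21 for miR-26b-5p and is the same at 15 of those 17 positions, the exceptions being A16U and U17G. It was not flagged. Its 20 spots, on 3 probes, ran from -3.59 to 4.96, and 0 of them were well above background.

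miR-4465, from chr6:140683855-140683876 on the plus strand, is the same as miR-26a-5p at 11 of 22 positions. It was flagged, with all 20 spots well above background, from 95.5 to 116. Its probes had means of 108 ± 7.73 (SD, 10 spots) and 104 ± 3.67 (SD, 9 spots), and its total gene signal was 38.8 ± 2.83. The seeds of the 3p arms were found in no other of the 2248 matched miRNAs.

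Further lists placed the family beside miRNAs linked to the same biology. Of 3 other miRNAs known to repress EZH2, miR-101-3p was flagged at 694 ± 49.4, with 20 of 20 spots well above background. miR-138-5p and miR-214-3p were not flagged, with 0 of 20 such spots each. The phosphatases that host miR-26 also work with REST, a repressor of neuronal genes. Of 4 arms of neural miRNAs under REST, miR-9-5p (22.1 ± 1.71), miR-9-3p (9.002 ± 0.934) and miR-132-3p (20.2 ± 1.59) were flagged with 20 of 20 spots well above background, and miR-124-3p was not. The shares of these short lists lie on both sides of the 44.4% of the array, and nothing was read from them about miR-26.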

How the data were processed

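MiRNA levels were read from 1 single-colour array of the si-NC sample. Per the file headers, Feature Extraction 11.0.1.1 gave the background-subtracted intensity of each spot, flags and total gene signals, and the deposited intensity was not normalized between arrays. The authors also deposited log2 values, quantile normalized in GeneSpring, whose scale and floor were found from the values. Labelling is given as Cyanine 3-pCp in the labels and as a cDNA kit in the methods of the study.

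Outlier spots (4.51%) and control spots were left out of means. Log2 levels, CVs and probe differences used probes with at least 50% of spots well above background, and this filter was chosen with the values known. Places in the genome and sequences came from RefSeq. The calculations of CVs, levels and probe differences were tested on simulated spots with no background noise and no outliers. The detection rules, normexp and signals near background were not tested in this way. Python 3.11.15 with numpy 2.4.6, pandas 2.3.3 and matplotlib 3.10.9 and R 4.3.3 with limma 3.58.1 (normexp, offset 50, on the median spot signal, where the mean had been planned) were used. Named were the 5 members, miRNAs sharing a seed, the listed EZH2 and REST miRNAs, tissue markers, and families with all locus-named arms detected. The members and lists were chosen with earlier results of these data known. The single array limits the precision. Alternatives were other detection rules, references, background corrections and spot or probe summaries.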

Additional observations from a re-analysis of the deposited data

How the results depend on the processing

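Over 62 alternative values 36 stayed within their limits and 26 moved. Limits were 1.5 times for counts, the SD over replicate spots for levels and a 95% interval for probe differences. Some of the 36 could not have moved. The rule on the floor of the deposited values called 1133 miRNAs, as the flag did, and miR-26a-2-3p had only 1 bright probe to choose from. The count of members (5) and of the family's 3p arms (3) fell to 4 and 2 under the stricter rules, with miR-26a-2-3p lost. The loss of 1 arm cannot pass the limit of 1.5 times, so staying within it does not show that the counts held. The 24 locus-named arms of the array fell to 13 when all probes were asked to be bright. Pairs of a 5p and a 3p arm, matched by name, had both arms detected in 252 of 853 cases. This count fell to 133 with the rule on negative control spots, 103 with every probe and 149 with a signal of 5 or more. Each of these rules calls fewer miRNAs. Levels are given in the order miR-26a-5p, miR-26b-5p, miR-26a-1-3p, miR-26a-2-3p and miR-26b-3p. With the percentile over all miRNA spots they were 8.22, 8.38, 2.42, 0.74 and 1.13, because the reference fell from 143 to 26.3. With normexp miR-26a-5p, miR-26b-5p, miR-26a-2-3p and miR-26b-3p were at 5.30, 5.45, -0.98 and -0.74, and with deposited values at 5.42, 5.48, -3.50 and -1.14. With the brightest probe alone miR-26a-5p, miR-26b-5p, miR-26a-1-3p and miR-26b-3p were at 6.07, 6.02, 0.32 and -0.49. With the median over spots miR-26a-1-3p and miR-26b-3p were at -0.10 and -1.09. The probe difference of miR-26a-1-3p was 0.66 with outlier spots included and 0.44 with normexp, and that of miR-26b-3p was 0.94 with normexp, which adds its offset to all signals. By definition, the level of the brightest probe alone is no lower than that over all bright probes. The -3.50 of miR-26a-2-3p comes from its deposited value near the floor, while its main level used its single bright probe. For the remaining changes the cause was not tested. The dim arm miR-26a-2-3p, with 1 of its 4 probes bright, is among the 284 detected miRNAs with a total gene signal under 5.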
